A study of Mus musculus with 7 samples.

Results

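The proteasome genes of mouse cortex were compared between embryonic day 14.5 (E14.5) and 10.5 months of age. The genes were chosen by symbol, as every Psma, Psmb, Psmc, Psmd, Psme, Psmf or Psmg gene with a numbered name, without the inducible subunits Psmb8, Psmb9 and Psmb10. The rule found 45 genes among the 53801 in the table. RNA from C57BL/6J tissue labelled cortical plate was sequenced in 7 libraries. The 4 E14.5 libraries came from Nbs1 fl/+; Nestin-Cre tg mice, with replicates 1 and 4 male and replicates 2 and 3 female. The 3 adult libraries were all female and CamK II-Cre tg, with the genotype Atr fl/+ in replicates 1 and 3 and Atr +/+ in replicate 2. Every library therefore carried a Cre transgene. The Nestin promoter drives Cre in neural progenitors and the CamK II promoter in excitatory neurons. Age could not be told apart from Cre driver, floxed allele or library kit, because the ages shared none of them.

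The proteasome is the protease that degrades proteins marked with ubiquitin chains. Its 20S core is a barrel of alpha and beta rings with the active sites inside, and its 19S cap binds ubiquitin, removes it, unfolds the substrate with a ring of ATPases and feeds it into the core. Other caps open the core without ATP, and dedicated chaperones, which are absent from the finished particle, assemble the rings. In the brain the particle serves the turnover of cell cycle proteins in dividing progenitors and of synaptic proteins in neurons.

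Library totals ranged from 32533065 to 43197226 counts in the embryonic group and from 27327927 to 29996018 in the adult group. Whole tissue was measured, so fewer cells of a type and less RNA per cell cannot be told apart. Marker genes of the cells that a cortical sample can hold also differed by age. All 8 markers of dividing progenitors were lower in adults, with a summed level of 2480 to 2770 CPM (counts scaled to library size) at E14.5 and 82.5 to 89.2 CPM in adults. All 6 astrocyte markers were higher, at 144 to 195 CPM and 4600 to 4730 CPM, as were all 6 oligodendrocyte markers, at 39.3 to 45.8 CPM and 5960 to 6200 CPM. The 6 microglia markers were higher as well, at 29.4 to 41.3 CPM and 233 to 254 CPM. All 7 erythroid markers were lower, at 1130 to 1560 CPM and 189 to 206 CPM, and Hba-x was at 0 in adults. Of 6 choroid plexus and meningeal markers 1 was higher, 4 were lower and 1 did not pass, with sums of 416 to 890 CPM and 55.8 to 493 CPM. These sums varied by library through Ttr, the marker that did not pass. Ttr was at 437 CPM in adult replicate 3, against 46.0 and 17.4 CPM in adult replicates 1 and 2. In E14.5 replicate 4 it was at 176 CPM, against 583 to 668 CPM in the other E14.5 libraries. Of 6 excitatory neuron markers 2 were higher and 4 lower, with sums of 1300 to 1450 CPM and 4490 to 4910 CPM. The higher ones were Camk2a, at means of 21.1 CPM at E14.5 and 3131 CPM in adults, and Slc17a7, at 88.4 and 1184 CPM. Neurod6 and Tbr1, both lower, are also among the cortex markers. Of 5 endothelial markers 2 were higher and 3 lower, with sums of 129 to 172 CPM and 214 to 232 CPM. Of the 8 cortex markers 7 were lower and 1 higher, at 1990 to 2160 CPM and 533 to 546 CPM, and none was at 0. The part of these differences in the values below was not tested.

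Proteasome transcripts were lower in adult cortex. The 45 genes together made up 0.523% ± 0.00738 (SD, n = 4) of embryonic reads and 0.268% ± 0.00482 (SD, n = 3) of adult reads assigned to genes. Mitochondrially encoded genes took 2.22 to 2.36% of embryonic and 7.74 to 8.51% of adult counts. Without them the calls given next were the same in number, 41 lower and 1 higher. CPM values were scaled by TMM factors, which allow for a few abundant genes taking a larger share of the counts. The factors were 1.12 to 1.15 at E14.5 and 0.844 to 0.854 in adults. They assume that most genes do not change or that changes balance, which was not tested. All CPM values and fold changes with TMM scaling rest on this assumption. On this scale the summed level was 4599 to 4672 CPM at E14.5 and 3101 to 3220 CPM in adults. The adult mean was 0.684 of the E14.5 mean, and the ages did not overlap.

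Of the 44 genes with enough counts to test, 41 were lower in adults, 1 was higher and 2 did not pass (edgeR quasi-likelihood test at an adjusted p under 0.05). The ages differed so widely that 86.4% of all 20800 genes tested passed, 44.7% as lower and 41.7% as higher. Every adult library lay below every E14.5 library for 41 of the 45 genes, against 44% of all genes tested. In a test against a change of at least 1.5-fold, 22 genes were lower and 0 higher, where 63.1% of all genes passed, 31.8% as lower and 31.3% as higher. A gene that did not pass it is not shown to have changed less than 1.5-fold. Psma4 and Psmd9, lower by 1.55-fold and 1.58-fold, did not pass.

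The proteasome genes lay in a narrow band. Their log2 fold changes, adult over E14.5, had a median of -0.67, an interquartile range of -0.89 to -0.41 and an SD of 0.41. Over all genes tested the median was -0.08, the interquartile range -1.11 to 1.18 and the SD 2.56, a spread that includes genes with few counts. The median of all genes was -0.20 with upper-quartile scaling and -0.49 with total counts only. The proteasome median was -0.79 and -1.08 in these settings. Relative to the median of all genes, the proteasome median was -0.59 under both and with TMM. Such scaling shifts all genes nearly alike, so this agreement was fixed in advance. In other settings the value could differ. It was -0.57 without the low-count filter, -0.60 with GC and length offsets and -0.73 in DESeq2. In limma on log2 RPKM with 0.1 or 0.5 added it was -0.61 and -0.71.

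**Figure D1:**
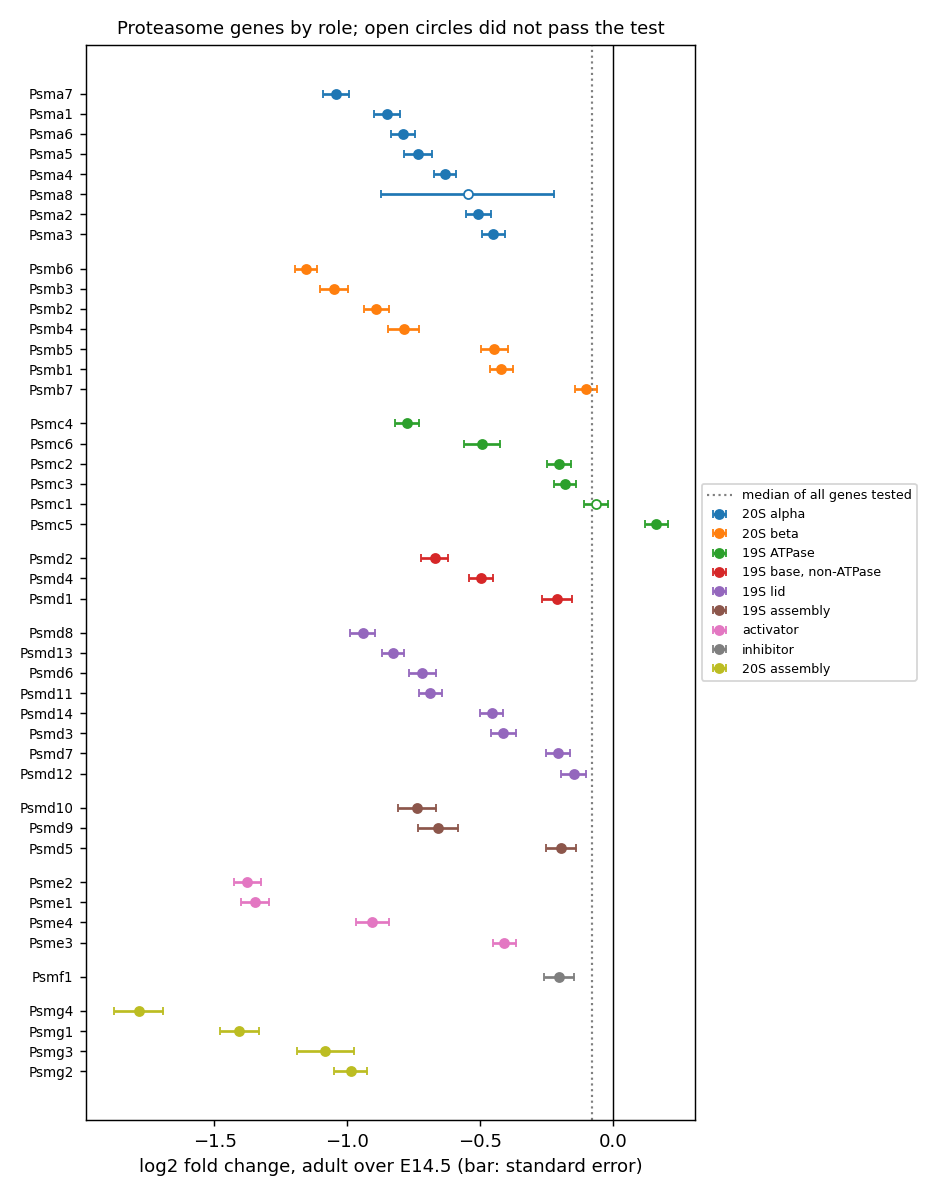
Log2 fold change (adult over E14.5, x axis) of the 44 tested proteasome genes, grouped by role, with bars for the standard error and open circles for genes that did not pass. All points but Psmc5 lie left of 0, from -1.78 (Psmg4) to -0.06 (Psmc1); Psmc5, at 0.16, moved to -0.25 with total counts only.

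The alpha subunits form the outer rings of the core, which gate the entry of substrates. Of the 8 genes, 7 were lower in adults and 1 did not pass, with a median log2 fold change of -0.68. Their summed level fell from 838 ± 9.61 CPM (SD, n = 4) to 511 ± 11.8 CPM (SD, n = 3). Psma7 had the largest fall, from 127.9, 127.2, 130.4 and 126.9 CPM in E14.5 replicates 1 to 4 to 64.35, 58.09 and 64.09 CPM in adult replicates 1 to 3. The adult libraries stood well apart from the embryonic ones, which differed little among themselves. The log2 fold change was -1.04 (SE 0.049, adjusted p = 4.3e-09). Psma3 had the smallest fall that passed, from 118.4, 115.5, 114.4 and 115.4 CPM to 82.25, 85.63 and 86.59 CPM. Its ages did not overlap either, and the log2 fold change was -0.45 (SE 0.042, adjusted p = 1.6e-06). Psma1, Psma2, Psma4, Psma5 and Psma6 lay between them. With offsets for GC content and length Psma6 fell less than Psma3, at -0.33 against -0.63.

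Psma8 is the germ-cell counterpart of Psma7, known for replacing it in the testis. It had 68 counts in the 4 embryonic libraries together and 20 in the 3 adult ones. Its levels were 0.422, 0.464, 0.341 and 0.392 CPM at E14.5 and 0.393, 0.260 and 0.167 CPM in adults. Adult replicate 1 fell inside the embryonic range, and the log2 fold change of -0.55 (SE 0.33) did not pass (adjusted p = 0.14). The call was gained without adult replicate 1 (-0.91, adjusted p = 0.050), with total counts only (-0.96, adjusted p = 0.016) and in limma on log2 RPKM with 0.5 or 0.1 added (adjusted p = 0.0053 and 0.0058).

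The beta subunits form the inner rings, and Psmb5, Psmb6 and Psmb7 carry the active sites, which cut after hydrophobic, acidic and basic residues. All 7 tested genes were lower in adults, with a median log2 fold change of -0.79. The summed level of the group fell from 729 ± 16.2 CPM (SD, n = 4) to 462 ± 1.71 CPM (SD, n = 3). The catalytic genes did not move alike. Psmb6 fell the most, from 135.4, 137.0, 136.7 and 135.7 CPM to 61.32, 61.69 and 60.16 CPM. Within each age the libraries were almost level, and the log2 fold change was -1.16 (SE 0.041, adjusted p = 3.8e-10). Psmb7 fell the least, from 108.6, 108.3, 104.6 and 108.4 CPM to 97.98, 101.7 and 100.7 CPM. The ages were close but did not overlap, and its log2 fold change of -0.10 (SE 0.041) passed narrowly (adjusted p = 0.039). The Psmb7 call was lost with RLE scaling (adjusted p = 0.29), in females only (0.16), in DESeq2 (0.12), with a replicate block (0.12), and without any 1 library other than E14.5 replicate 3 (0.056 to 0.10).

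Psmb5 lay between the other catalytic subunits, with a log2 fold change of -0.45 (SE 0.050, adjusted p = 7.6e-06). With total counts only, which lowered the values of all genes, Psmb5 was at -0.86. Beyond that its value moved under 2 alternatives, and the cause was not tested. Its pseudogenes held 77.8% as many counts as Psmb5 at E14.5 and 30.7% in adults, and with their counts added the log2 fold change was -0.89. With offsets for GC content and length it turned to 0.22 (adjusted p = 0.0014). Under these offsets Psmb7 was at -0.30, Psmb6 at -1.12 and Psmb3 at -1.18. Without offsets the structural subunits Psmb1, Psmb2, Psmb3 and Psmb4 were lower by log2 fold changes of -0.42, -0.89, -1.05 and -0.79.

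Psmb11 is the thymus-specific counterpart of Psmb5 and lies beside it, at chr14:54621433-54629556 against chr14:54614119-54618022 (GRCm38, GENCODE M21). It had 11 counts at E14.5 and 9 in adults, and the low-count filter removed it. Its levels were 0.0222, 0.0273, 0.131 and 0.0826 CPM at E14.5 and 0.0787, 0.130 and 0.167 CPM in adults. The ages overlapped, and no difference was detectable at this depth.

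**Figure D2:**
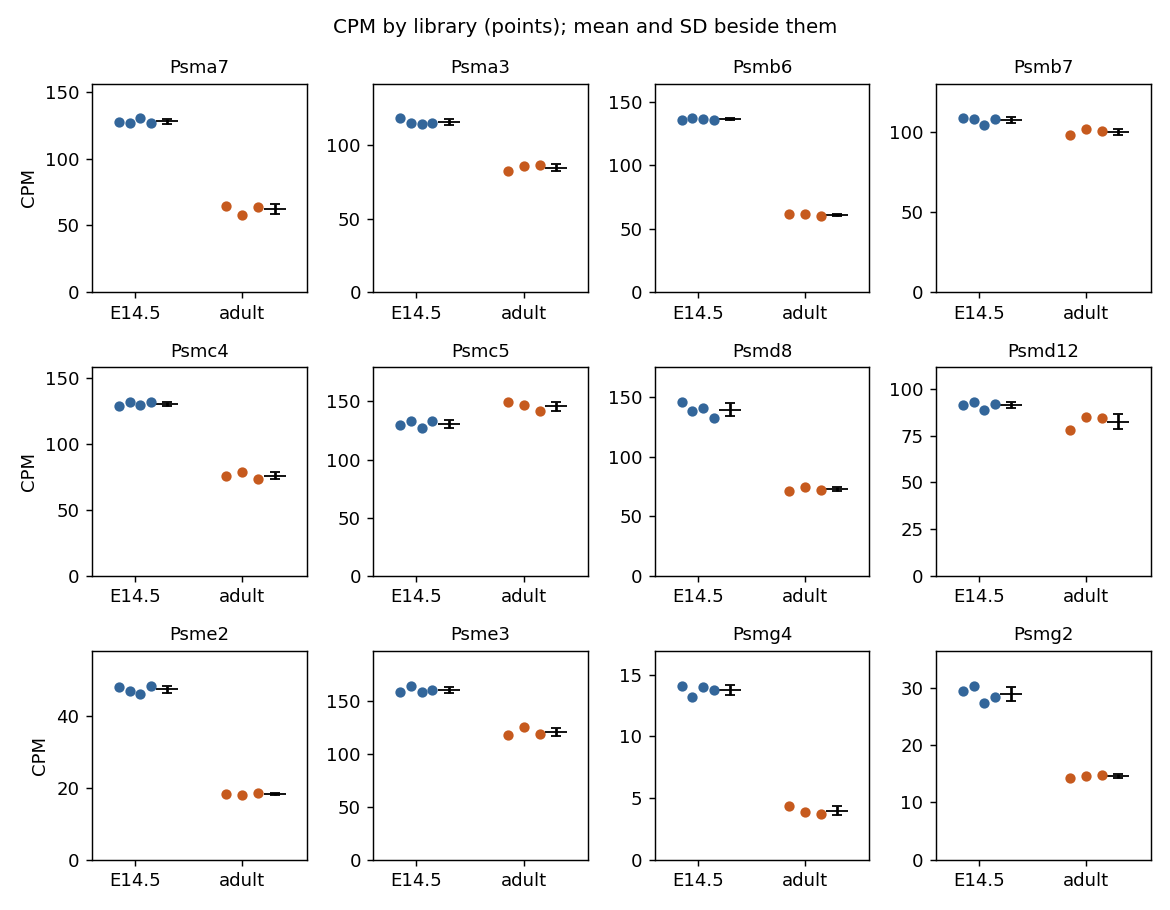
CPM (TMM-scaled, y axis from 0) in each library for 12 proteasome genes, with blue points for E14.5 and orange points for adults and the mean ± SD beside them. The groups do not overlap in any panel, with Psmb6 at 135 to 137 against 60.2 to 61.7 CPM and Psmb7 at 105 to 109 against 98.0 to 102 CPM; adult Psmc5 lies above E14.5 on this scale and below it with total counts only.

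The ATPases form the hexameric ring at the base of the 19S cap, which unfolds substrates and opens the gate of the core. Of the 6 genes, 4 were lower in adults, 1 was higher and 1 did not pass, with a median log2 fold change of -0.19. Their summed level went from 838 ± 9.35 CPM (SD, n = 4) to 711 ± 22.4 CPM (SD, n = 3), an adult share of 0.849 of the E14.5 mean. For the whole core the same share was 0.621. The ring holds 1 copy of each ATPase, while their transcripts differed in direction and size.

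Psmc4 fell the most, from 128.3, 131.4, 128.9 and 131.3 CPM to 75.52, 78.95 and 73.21 CPM. All adult libraries lay far below the embryonic ones, and the log2 fold change was -0.78 (SE 0.044, adjusted p = 2.1e-08). With GC and length offsets Psmc6 fell further than Psmc4, at -1.01 against -0.85. Psmc1 was at 141.4, 140.8, 141.4 and 140.8 CPM at E14.5 and at 128.4, 141.9 and 134.5 CPM in adults. Adult replicate 2 exceeded all E14.5 libraries while the other two were lower, and the log2 fold change was -0.06 (SE 0.046, adjusted p = 0.20). With total counts only the Psmc1 value was -0.48 and passed. Psmc5 was at 129.5, 132.8, 126.8 and 133.5 CPM at E14.5 and at 149.4, 146.8 and 141.7 CPM in adults. It was the one gene with every adult library above every embryonic one, with a log2 fold change of 0.16 (SE 0.043, adjusted p = 0.005). The Psmc5 direction depended on scaling: it was 0.03 with upper-quartile scaling (adjusted p = 0.47), 0.08 without the low-count filter (adjusted p = 0.17), and -0.25 with total counts only. With GC and length offsets Psmc5 was at 0.48 (adjusted p = 8.1e-07). Psmc2, Psmc3 and Psmc6 were lower, with log2 fold changes of -0.21, -0.18 and -0.49.

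The promoters of Psmc1 and Psmc5 are shown because these were the only ATPase genes not lower in adults with TMM scaling. The sequences are the 250 bases before the start site from RefSeq (GRCm38.p6), given 5′ to 3′ on the strand of the gene, in lower case with motif matches in capitals. The Psmc1 window is chr12:100109952-100110201 on the plus strand, and the capitals mark CCAAT, which starts 175 bases before the start site, and CCGGAAG read on the opposite strand, 28 bases before it. The Psmc5 window is chr11:106255935-106256184 on the plus strand and held none of the motifs searched.
Psmc1: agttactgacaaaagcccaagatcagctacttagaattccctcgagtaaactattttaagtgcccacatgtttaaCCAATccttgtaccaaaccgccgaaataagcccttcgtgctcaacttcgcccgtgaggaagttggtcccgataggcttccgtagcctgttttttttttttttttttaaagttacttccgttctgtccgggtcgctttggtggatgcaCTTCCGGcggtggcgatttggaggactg
Psmc5: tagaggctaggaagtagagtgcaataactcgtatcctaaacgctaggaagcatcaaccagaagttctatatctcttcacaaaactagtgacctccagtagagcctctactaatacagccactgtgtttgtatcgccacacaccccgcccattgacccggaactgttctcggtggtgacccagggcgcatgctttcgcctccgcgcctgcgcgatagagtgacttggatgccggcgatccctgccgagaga

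Windows of this length were found for 37 of the 45 genes, 40 windows in all. Each was searched on both strands for 4 motifs, none of which contains another. TGACNNNGC, the core of the element bound by Nfe2l1 and its relatives, was in 12.5% of these windows and in 10.2% of the 32851 windows of all genes. CCAAT, bound by NF-Y, was in 32.5% and 33.8%. CCGGAAG, a core that ETS factors bind, was in 32.5% and 6.91%, which is 13 windows of 12 genes. The core of the interferon response element was in 7.5% and 2.98%. A match is only a string of letters in the window, and binding was not measured.

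The non-ATPase subunits of the base are the scaffolds Psmd1 and Psmd2 and the ubiquitin receptor Psmd4. All 3 genes were lower in adults, with a median log2 fold change of -0.50. Psmd2, which docks ubiquitin carriers and had the highest CPM of all 45 genes, fell from 289.1, 302.7, 295.0 and 313.2 CPM to 179.4, 193.6 and 192.0 CPM. The ages were well apart, with a log2 fold change of -0.67 (SE 0.051, adjusted p = 2.4e-07). Psmd1 fell less, from 156.3, 160.5, 148.9 and 162.8 CPM to 127.2, 145.6 and 133.6 CPM. Adult replicate 2 came close to E14.5 replicate 3 without reaching it, and the log2 fold change was -0.21 (SE 0.056, adjusted p = 0.0043). Psmd4 stood between them at -0.50.

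The lid holds the deubiquitinase Psmd14, its partner Psmd7 and the scaffold subunits Psmd3, Psmd6, Psmd8, Psmd11, Psmd12 and Psmd13. All 8 genes were lower in adults, with a median log2 fold change of -0.57, and 4 were lower beyond 1.5-fold. Psmd8 fell the most, from 145.7, 138.6, 140.5 and 132.8 CPM to 71.39, 74.53 and 71.62 CPM. Its adult libraries were alike and far below the embryonic ones, with a log2 fold change of -0.94 (SE 0.048, adjusted p = 7.8e-09). Psmd12 fell the least, from 91.55, 92.90, 88.94 and 92.02 CPM to 77.76, 84.90 and 84.58 CPM. Its ages did not overlap, with a log2 fold change of -0.15 (SE 0.047, adjusted p = 0.012), a call lost with RLE scaling (adjusted p = 0.083) and in females only (adjusted p = 0.051). Psmd14 was lower by a log2 fold change of -0.46 and Psmd7 by -0.21. With GC and length offsets Psmd12 and Psmd7 were about level, at -0.335 and -0.331.

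Psmd5, Psmd9 and Psmd10 are chaperones that hold pairs of ATPases during assembly of the base. All 3 were lower in adults, with a median log2 fold change of -0.66. Psmd10, also known as gankyrin, fell from 19.72, 19.07, 20.13 and 18.75 CPM to 11.92, 12.02 and 10.95 CPM. Its adult libraries all lay below the embryonic ones, with a log2 fold change of -0.74 (SE 0.071, adjusted p = 2e-06). Psmd5 fell from 58.56, 59.45, 57.80 and 54.64 CPM to 46.73, 53.53 and 50.59 CPM. The gap between adult replicate 2 and E14.5 replicate 4 was small, and the log2 fold change was -0.20 (SE 0.058, adjusted p = 0.008). Psmd9 was at -0.66, with 25.5% of its exon length overlapped by exons on the opposite strand. With GC and length offsets the order differed, with Psmd9 at -0.958, Psmd5 at -0.436 and Psmd10 at -0.421.

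The chaperones of the 20S core had the lowest adult share of summed CPM among the role groups. Psmg1 and Psmg2 pair up, as do Psmg3 and Psmg4, and both pairs build the alpha ring. All 4 genes were lower in adults, all beyond 1.5-fold, with a median log2 fold change of -1.24. Their summed level dropped from 79.4 ± 1.68 CPM (SD, n = 4) to 33.5 ± 1.46 CPM (SD, n = 3), to 0.421 of the E14.5 mean. The order of the groups was not tested, and with GC and length offsets the log2 fold changes were -1.28 to -0.75 here and -1.47 to -0.62 in the activators.

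With TMM scaling and no offsets Psmg4 had the largest fall of the 44 tested genes, from 14.07, 13.18, 13.97 and 13.75 CPM to 4.366, 3.861 and 3.721 CPM. Neither age varied much between libraries, and the log2 fold change was -1.78 (SE 0.093, adjusted p = 9.8e-09). With the offsets the Psmg4 value was -0.75 (adjusted p = 1e-05), the smallest fall of its group. Psmg1 fell from 26.30, 25.26, 25.67 and 25.83 CPM to 10.58, 8.937 and 9.616 CPM, a log2 fold change of -1.41 (SE 0.074, adjusted p = 1.1e-08). Psmg2 had the smallest fall of the group, from 29.39, 30.31, 27.41 and 28.37 CPM to 14.20, 14.62 and 14.84 CPM. Its adult libraries were at about the same level, well below the embryonic ones, with a log2 fold change of -0.99 (SE 0.063, adjusted p = 5.8e-08). Psmg3 was at -1.08.

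The promoters of the genes with the largest falls in this group are printed for comparison with those of Psmc1 and Psmc5. They are again the 250 bases before the RefSeq start site (GRCm38.p6), with matches to the 4 motifs in capitals. The Psmg1 window is chr16:95990961-95991210 on the minus strand, and the capitals mark CCGGAAG, 69 bases before the start site. The Psmg4 window is chr13:34162714-34162963 on the plus strand and held none of the motifs.
Psmg1: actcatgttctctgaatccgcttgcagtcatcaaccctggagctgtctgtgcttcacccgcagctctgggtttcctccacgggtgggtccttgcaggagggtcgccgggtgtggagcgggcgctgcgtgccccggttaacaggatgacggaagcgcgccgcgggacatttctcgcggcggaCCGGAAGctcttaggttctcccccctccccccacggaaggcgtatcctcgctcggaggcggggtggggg
Psmg4: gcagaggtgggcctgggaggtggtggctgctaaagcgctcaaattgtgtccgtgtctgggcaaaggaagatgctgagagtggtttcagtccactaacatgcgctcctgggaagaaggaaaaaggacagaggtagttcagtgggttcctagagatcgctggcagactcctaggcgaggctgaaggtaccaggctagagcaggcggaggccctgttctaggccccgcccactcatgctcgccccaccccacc

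Psme1 and Psme2 encode the interferon-inducible cap PA28, Psme3 encodes the nuclear PA28 gamma cap, and Psme4 encodes PA200, a cap linked to histone degradation. All 4 genes were lower in adults, 3 of them beyond 1.5-fold, with a median log2 fold change of -1.13. Psme1 and Psme2 are neighbours, at chr14:55578123-55581529 and chr14:55587441-55591113 (GRCm38, GENCODE M21), and encode subunits of 1 ring. Psme1 fell from 57.69, 57.98, 61.01 and 55.63 CPM to 22.74, 22.47 and 23.16 CPM. Psme2 fell from 48.02, 46.98, 46.10 and 48.24 CPM to 18.13, 18.05 and 18.48 CPM. The adult libraries of both genes were almost level and far below the embryonic ones. The log2 fold changes were -1.35 for Psme1 (SE 0.053, adjusted p = 8.7e-10) and -1.38 for Psme2 (SE 0.051, adjusted p = 5.4e-10).

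Psme3 fell the least of the caps, from 158.7, 164.1, 158.0 and 159.9 CPM to 117.6, 125.0 and 119.0 CPM. The ages were apart, with a log2 fold change of -0.41 (SE 0.043, adjusted p = 4.6e-06). Psme4 fell from 168.5, 195.7, 175.9 and 194.8 CPM to 96.05, 97.22 and 100.8 CPM. Its embryonic libraries spread more than its adult ones, and the log2 fold change was -0.91 (SE 0.062, adjusted p = 1.1e-07). Psmf1, or PI31, binds the core and inhibits it in the test tube. It fell from 46.96, 46.16, 47.88 and 45.74 CPM to 42.09, 41.99 and 37.42 CPM. Adult replicate 3 was the lowest, and the log2 fold change was -0.20 (SE 0.055, adjusted p = 0.005).

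**Figure D3:**
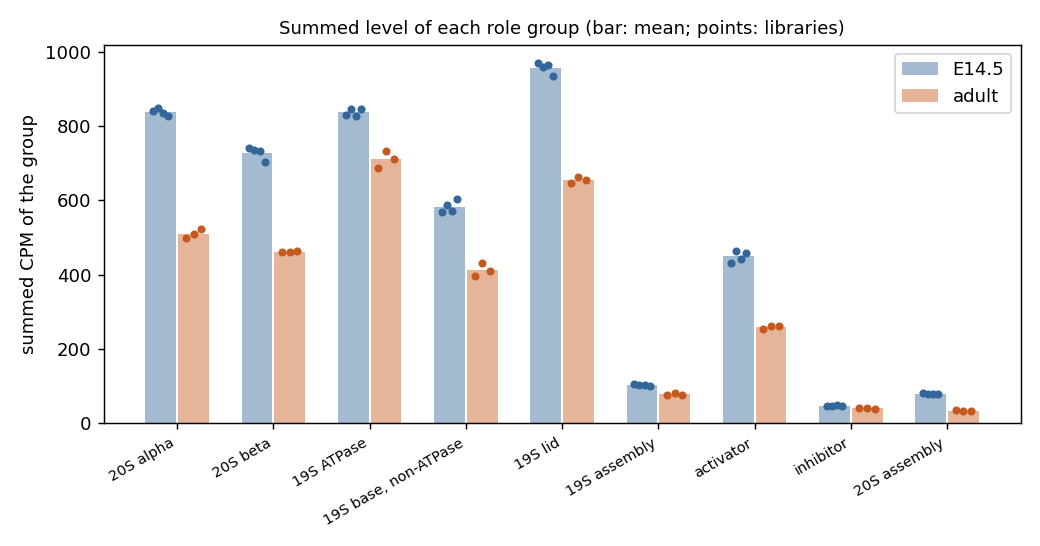
Summed CPM (TMM-scaled, y axis from 0) of each role group, with bars for the mean and points for the libraries of E14.5 (blue) and adults (orange). Every group is lower in adults, with adult means between 0.421 (20S assembly chaperones) and 0.868 (the inhibitor Psmf1) of the E14.5 mean.

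Ratios of genes within a library hardly depend on the scaling between libraries. The difference between ages was tested for 6 ratios over the 35 splits of 7 libraries, two-sided. Each exact permutation test gave p = 0.0286, adjusted over the 6 to 0.0286, the smallest p that the design allows. Psme1 was at 34.8 to 38.6% of Psme3 at E14.5 and 18.0 to 19.5% in adults, a mean log2 difference of -0.92 with 0.5 added to each CPM. Psme2 was at 28.6 to 30.3% and 14.4 to 15.5% of Psme3. Both PA28 genes were lower relative to PA28 gamma in all 3 adult libraries. In CPM, Psme4 was at 106 to 122% of Psme3 at E14.5 and at 77.8 to 84.7% in adults, a log2 difference of -0.49. CPM does not allow for gene length, so only the change of these ratios with age can be read. Per length, Psme4 was below Psme3 at both ages, at 24.8 against 61.4 RPKM at E14.5 and 9.92 against 34.7 RPKM in adults.

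The inducible subunits Psmb8, Psmb9 and Psmb10 replace Psmb5, Psmb6 and Psmb7 in the immunoproteasome, a form that makes peptides for antigen presentation. Psmb8 and Psmb9 transcripts were scarce at both ages. In CPM, without allowance for gene length, Psmb8 was at 0.468 to 0.742% of Psmb5 at E14.5 and at 7.37 to 8.85% in adults. With 0.5 CPM added, more than the E14.5 level of Psmb8 or Psmb9 itself, the mean log2 difference was 2.63, and with 0.1 CPM added it was 3.49. Psmb9 was at 0.131 to 0.279% and 1.86 to 3.38% of Psmb6, a log2 difference of 2.59 with 0.5 CPM added and 3.41 with 0.1 CPM. These sizes depend on the added value and understate the change in the shares. Psmb10 was at 4.71 to 6.40% and 18.9 to 23.3% of Psmb7, a log2 difference of 1.91 with 0.5 CPM added. The percentages show the change with age and not relative levels per length. In deposited RPKM, Psmb8 was at 0.121 and 0.962 and Psmb5 at 64.3 and 35.4 at E14.5 and in adults. Psmb10 was at 3.76 and 10.5 RPKM and Psmb7 at 35.5 and 24.8 RPKM. All 3 adult libraries lay above all 4 embryonic ones in each ratio. The 6 microglia markers, at 29.4 to 41.3 CPM and 233 to 254 CPM, moved the same way, and their part in these ratios was not tested.

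**Figure D4:**
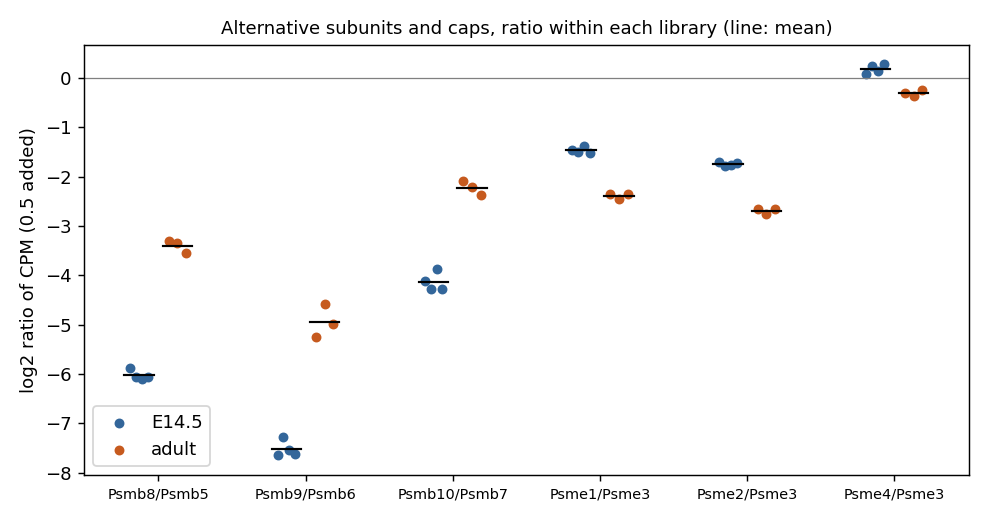
Log2 ratio of CPM (0.5 added to each gene, y axis) within each library for 6 gene pairs, with blue points for E14.5, orange points for adults and lines for the means. The inducible over constitutive ratios are higher in adults by 1.91 to 2.63, and the ratios to Psme3 differ by -0.95 to -0.49.

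Levels between genes can be compared only per length, and for this the deposited RPKM values were used. Among the 14 core genes without Psma8 and Psmb11, the median level was 59.6 RPKM at E14.5 and 26.8 RPKM in adults. Psmb3 was the lowest at both ages, at 31.1 and 11.3 RPKM. Psmb1 was listed highest, at 139 and 78.2 RPKM, but on a deposited length of 1036 bases, where GENCODE M21 has 4595 exonic bases. At that length it would be at 31.4 and 17.6 RPKM. Psma6, whose lengths match, came next at 128 and 55.6 RPKM. The deposited length was within 1% of that annotation for 42 of the 45 genes. Among the ATPases, Psmc2 was lowest and Psmc5 highest at both ages, at 27.9 and 106 RPKM at E14.5. Among the other base and lid genes, Psmd11 was lowest and Psmd2 highest at both ages. The assembly chaperones had a median of 14.9 RPKM at E14.5 and 6.09 RPKM in adults. RPKM counts each gene against the library total, with 1 length per gene, and reads shared with pseudogenes are not corrected.

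Of the 45 genes, 15 had at least 1 near-identical pseudogene in the table, 26 pseudogenes in all. These held 4.31% as many counts as the 45 genes at E14.5 and 3.83% in adults. Psma5, Psmb3, Psma3 and Psmb5 had the most relative to their own counts, and no source used here says how such reads were split in the counting. The pseudogene counts of Psma5 came to 66.2% of its own at E14.5 and 63.1% in adults, and the log2 fold change of Psma5 was -0.76 with them and -0.73 without. For Psmb3 they came to 19.5% and 30.0%, with log2 fold changes of -0.93 and -1.05. The E14.5 kit does not mark strand and the adult kit does, so opposite-strand genes could add reads to different extents at the ages, which was not tested. Exons on the opposite strand overlapped 9 of the 45 genes. Of the 35 tested genes without such overlap, 32 were lower in adults and 1 was higher, with 19 lower beyond 1.5-fold.

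Chromosome 11 held 8 of the 45 genes, and chromosomes 2 and 14 held 6 each.

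No difference between sexes was found among the E14.5 libraries, 2 male and 2 female. Of the 44 genes tested, 0 passed in edgeR's quasi-likelihood test, 0 were at an unadjusted p under 0.05, and 0 passed in DESeq2. Over all 20134 genes tested, 10 passed in edgeR, or 0.0497%. The smallest unadjusted p was that of Psmd9, at 0.15, with a log2 difference of 0.13, male minus female (edgeR). E14.5 replicate 1, which had an earlier plug date than the others, was among the males.

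Genes that work with the particle moved in both directions. Of 35 such genes, 11 were lower in adults, 18 were higher and 6 did not pass, against a background of 44.7% lower and 41.7% higher over all genes. With total counts only the split was 21 lower and 10 higher. The inducible subunits were all higher. Psmb8 rose from 0.292 ± 0.0646 CPM (SD, n = 4) to 3.11 ± 0.267 CPM (SD, n = 3), a log2 fold change of 3.40, with exons on the opposite strand over 14.7% of its exon length. Psmb9 and Psmb10 rose by log2 fold changes of 2.67 and 1.90. Psmb8 had 10 to 84 counts per library, and Psmb9 8 to 48.

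Of 12 proteins that bind the particle, the genes of 5 were lower and of 7 higher. Sem1, the smallest lid subunit, which has no Psm symbol, fell from 128.9 ± 3.46 to 36.99 ± 3.60 CPM (SD, n = 4 and 3), a log2 fold change of -1.80. Zfand2a, which aids degradation under arsenite stress, rose by 1.15. Usp14, a deubiquitinase bound to the base, rose by 0.92, with exons on the opposite strand over 26.0% of its exon length. Sem1, Zfand2a and Usp14 kept their directions with total counts only, while Ube3c and Fbxo7, higher at 0.31 and 0.33, turned to -0.11 and -0.08, and Uchl5, at 0.55, did not pass (0.13, adjusted p = 0.079).

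Nfe2l1 encodes the transcription factor that raises proteasome genes when the proteasome is inhibited. It rose from 126.6 ± 2.36 CPM (SD, n = 4) to 371.3 ± 12.4 CPM (SD, n = 3), with every adult library above every embryonic one. The log2 fold change was 1.55 (SE 0.044, adjusted p = 7.1e-11), between 1.12 and 1.61 under the alternatives run. Ngly1, the glycanase that processes the Nfe2l1 protein, was higher by 0.45 and, with total counts only, at 0.03, which did not pass (adjusted p = 0.66). Nfe2l3, its close relative, fell, with a log2 fold change of -0.98. Of these 5 genes, 3 were higher, 1 was lower and Nfe2l2, the oxidative stress factor, did not pass at 0.02 (adjusted p = 0.73). Ddi2, the protease that cleaves the Nfe2l1 protein, was at 0.33 and turned to -0.09 with total counts only, where Nfe2l1 alone of the 3 passed as higher.

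Among 9 genes for the delivery of substrates, 3 were lower, 4 higher and 2 did not pass. Ufd1, a cofactor of the unfolding ATPase Vcp, was at 0.24 and turned to -0.18 with total counts only. The ubiquitin shuttles Ubqln1 and Ubqln2, at 0.19 and 0.15, turned to -0.22 and -0.26. Faf1, another Vcp cofactor, fell, with a log2 fold change of -0.69. Among the genes of ubiquitin and its activating enzymes, 2 were lower in adults. Rps27a, which encodes ubiquitin fused to a ribosomal protein, was at -1.34 and Uba1, the main ubiquitin-activating enzyme, at -1.05.

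**Figure D5:**
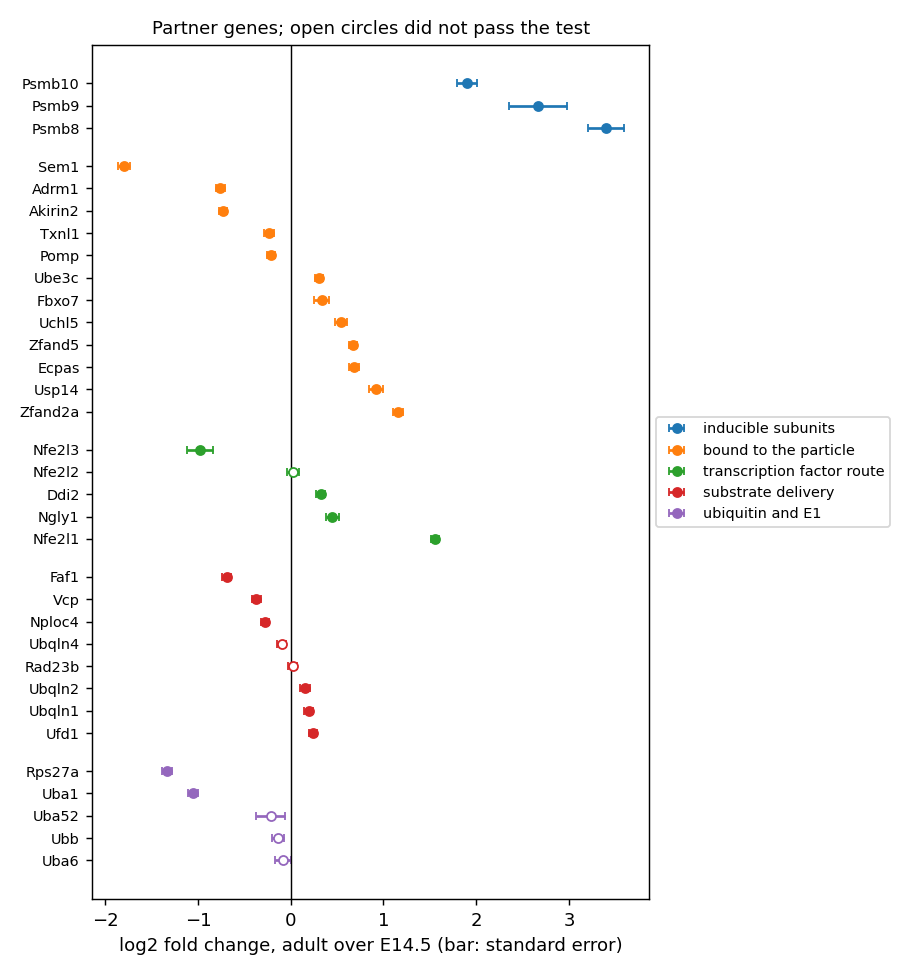
Log2 fold change (adult over E14.5, x axis) of 33 partner genes in 5 lists, with bars for the standard error and open circles for genes that did not pass. Values run from -1.80 (Sem1) to 3.40 (Psmb8) on both sides of 0; with total counts only 8 of the points right of 0 turn to the left.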

How the data were processed

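RNA of tissue labelled cortical plate was sequenced in 4 E14.5 and 3 adult libraries, made with the TruSeq RNA v2 kit and the TruSeq stranded mRNA kit respectively, per the labels' protocols. The genome build GRCm38 and the tools featureCounts 1.5.0, TopHat2 2.1.0 and bcl2fastq 1.8.4 are listed in the submitters' processing notes. Not given in the sources used here were the use of strand in counting, the treatment of multiply matching reads and the annotation release. The authors deposited 1 workbook with the read counts, RPM and RPKM of 53801 genes. The deposited RPM proved equal to counts over the library total, and RPKM to rest on 1 length per gene. No label states that each library was a separate animal, and p-values then measure only the spread between these samples, which may be technical. The labelled dates place brain isolation 12 days after the plug, and the stage is used as labelled.

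The counts went into edgeR 4.0.16, run in R 4.3.3 (quasi-likelihood F test, TMM, filterByExpr with a minimum count of 10 and a minimum total of 15, Benjamini-Hochberg at 0.05 over all genes), and against 1.5-fold with glmTreat. CPM values are TMM-scaled, and SEs are the log2 fold change over the square root of F. Ratios were tested by exact permutation over every split of the libraries, in Python 3.11.15. Positions and exon overlaps came from GENCODE M21, and pseudogenes were matched with BLAST 2.17.0 (at least 90% identity over 200 bases). The alternatives tried were scaling by RLE, by upper quartile and by total counts, no mitochondrial genome, no low-count filter, females only, a replicate block, GC and length offsets (splines of 5 df), DESeq2 1.42.0, limma 3.58.1 on log2 of RPKM plus 0.5 or 0.1, and each library left out. Adding pseudogene counts and leaving out genes with opposite-strand exons were chosen after seeing the data.

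The members and lists were chosen with earlier results of these data known. Per-library values are given for the lowest and highest log2 fold change in each role group, with TMM scaling and no offsets. They are also given for members that did not pass, went against their group or were filtered out. For partner genes the rule chose the 2 largest passing changes in the direction most of a list took, the largest opposite one and the inducible subunits. Partner genes are given by mean and SD or by log2 fold change only. Psmb5, Psma5, Psmb3, Psmg1, Psmg3 and other members outside that rule were named to account for every member. Nfe2l2, Camk2a, Slc17a7 and Ttr were named after their values were seen. Of 36 partner genes listed, 35 were matched, and Paaf1 is not analysed here. Some genes that the rule chose are not reported here. The age test was tested on simulated data with 20266 genes. It found 44 of 67 genes set to change 1.5-fold, 55 of 67 set to 2-fold and 64 of 66 set to 4-fold. It made 13 false calls. The test against 1.5-fold found 0, 33 and 58 of the same genes. Only these genes were set to change in the simulation, whereas 86.4% of genes passed in the data. The simulation therefore does not measure the false calls or the scaling error of the age comparison.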

Additional observations from a re-analysis of the deposited data

Results flagged for a closer look

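In 5 of 99 sets of 4 E14.5 values, 1 library stood apart from the other 3 by Dixon's criterion, and chance flags about 1 in 20. Psmb7 was at 105 CPM in E14.5 replicate 3, against 108 to 109 CPM in the others, and its age call was kept without that library and lost without any other. Psmd6, a lid scaffold, was at 102 CPM in replicate 4, against 111 to 113 CPM. Psmd7, the partner of the lid deubiquitinase, was at 97.9 CPM in replicate 2, against 102 CPM. Vcp was at 330 CPM in replicate 1, against 344 to 345 CPM. The log2 ratio of Psmb8 to Psmb5 was -5.87 in replicate 1, against -6.10 to -6.07. In all 5 the ages still did not overlap.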

How the results depend on the processing

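Between 40 and 44 proteasome genes passed under the alternatives that kept all members, and 20 to 33 passed beyond 1.5-fold, with the most under total-count scaling; of the 35 without opposite-strand exon overlap, 33 and 19 passed. Partner genes that passed numbered 26 to 31. With the replicate block 41 proteasome genes passed, and the numbers did not pair the libraries (correlations of same-numbered deviations -0.00126, -0.015 and 0.0283). The 1.5-fold test was run in edgeR only. Over single proteasome genes and settings, 809 values kept their direction and side of the threshold, 14 lost the call, 9 gained it and 4 turned. With total counts only, RPKM + 0.5 and RPKM + 0.1, Psmc5 was at -0.254, -0.253 and -0.254, Ube3c at -0.107, -0.102 and -0.106, Fbxo7 at -0.0813, -0.0678 and -0.0731, Nfe2l2 at -0.389, -0.360 and -0.384, Ddi2 at -0.0890, -0.0832 and -0.0882, Rad23b at -0.394, -0.389 and -0.393, Ubqln1 at -0.221, -0.219 and -0.221, Ubqln2 at -0.263, -0.259 and -0.261, and Ufd1 at -0.175, -0.169 and -0.174; by construction RPKM uses total counts. With upper-quartile scaling Nfe2l2 was at -0.102 and Rad23b at -0.106, and without the low-count filter at -0.0541 and -0.0586. With GC and length offsets Psmb5 was at 0.224, Ube3c at -0.0560, Nfe2l2 at -0.133, Ddi2 at -0.0588, Rad23b at -0.177, Ubqln2 at -0.0445 and Ubb at 0.0152; the cause was not tested. With 1 library left out at a time, Nfe2l2 ran from -0.00725 (without adult replicate 3) to 0.0867 and Uba6 from -0.162 to 0.0184 (without adult replicate 1). Leaving out a library leaves 20 or 15 splits, so that no ratio can pass (adjusted p 0.067 to 0.10 in exact permutation tests). The log2 ratio differences, with 0.5 CPM added, then ran from 2.59 to 2.70 for Psmb8/Psmb5, 2.42 to 2.74 for Psmb9/Psmb6, 1.84 to 2.0 for Psmb10/Psmb7, -0.942 to -0.885 for Psme1/Psme3, -0.964 to -0.912 for Psme2/Psme3 and -0.528 to -0.460 for Psme4/Psme3. Psma8 had 68 and 20 counts at the ages and Psmb11 11 and 9, the fewest of the members.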
